A study of Rattus norvegicus with 30 samples.

Results

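The transcripts of 9 genes of the insulin signaling pathway, Insr, Irs1, Irs2, Pik3r1, Akt1, Akt2, Foxo1, Foxo3 and Gsk3b, were analyzed in the brains of 10 WT, 10 HIP and 10 amylin knockout (AKO) male rats on a normal diet. They were found by gene symbol, each in 1 row of a table of 17134 genes, so that all 9 listed symbols were present. HIP rats make human amylin, a peptide hormone that can form amyloid, in the β-cells of the pancreas and develop type-2 diabetes, WT rats have only their own rat amylin, which does not form amyloid, and AKO rats lack the amylin gene. The HIP and WT rats were 15 to 16 months old, and the age of the sequenced AKO rats is not given in the sources used here. The human amylin of HIP rats is thus driven in pancreatic β-cells, while the RNA sequenced here came from brain. The rat numbers of all WT and HIP rats contain the letters RT, while those of AKO rats contain KAH or AKO, so that the genotype of AKO rats and the rat series they came from cannot be told apart. The tissue is named frontal cortex in the sample annotation, cerebral cortex in the methods and hippocampus in the results of the study.

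Insulin binds the insulin receptor (Insr), a tyrosine kinase at the cell surface, which phosphorylates the adaptor proteins Irs1 and Irs2. The adaptors recruit phosphoinositide 3-kinase (PI3K), whose main regulatory subunit is encoded by Pik3r1, and the lipid it makes activates the kinases Akt1 and Akt2. Akt phosphorylates and restrains the kinase Gsk3b and keeps the transcription factors Foxo1 and Foxo3 out of the nucleus, and active FoxO factors raise transcription of Insr and Irs2 themselves. In brain, neurons and glia express the receptor, and the pathway acts on feeding, synapses and survival. The values here are levels of mRNA, and phosphorylation, by which the pathway carries its signal, was not measured.

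The values are normalized counts, that is reads per gene divided by a factor that makes the rats comparable. Reads on genes, estimated from the steps between low values, numbered 12.9 to 21.2 M per WT rat. HIP rats had 13.7 to 16.7 M such reads, and the range for AKO rats was 12.9 to 23.6 M. Of 6 marker genes of neocortical layers, 5 were in the table, and their mean level on a log2(normalized count + 1) scale was between 9.14 and 10.4 in 29 rats and 4.03 in WT rat 10RT43. The same rat had a mean of 13.2 for 5 cerebellum genes, for which the other WT rats did not exceed 5.10. HIP rat 10RT46 had a mean of 10.2 for 5 pineal gland genes and 9.0 for 5 choroid plexus genes, for which the other HIP rats did not exceed 1.85 and 3.25, and HIP rat 12RT23 had a cerebellum mean of 10.2. AKO rat 7AKO19 had a choroid plexus mean of 7.58, for which the other AKO rats did not exceed 3.98. HIP rat 10RT48 had the highest mean of 5 microglia genes, 9.72, but was the lowest or highest of its group for no more than 17.0% of genes. AKO rat 6KAH98 was the lowest or highest of its group for 51.3% of genes, with 5 of the 9 insulin signaling genes at their lowest. The percentages were 60.6% for 10RT43, 46.8% for 10RT46 and 37.04% for AKO rat 4KAH27, and these 3 rats and 6KAH98 had the lowest median rank correlations with the other rats (0.905 to 0.967). Genes of the striatum and of the olfactory bulb also ranged widely, from 7.49 to 10.6 and from 2.42 to 9.25. Calls with a p-value under 0.05 are also given without 10RT43, 10RT46, 10RT48 and 6KAH98. Those of the 9 genes are also given without 4KAH27 in place of 10RT48, and those of other genes where that choice changed the call. RNA came from tissue of mixed cells, in which fewer cells of a type and less RNA per cell cannot be told apart.

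Insr (ENSRNOG00000029986) had 203 normalized counts in the lowest, 314 in the median and 420 in the highest WT rat. The HIP rats ranged from 159.03 to 387 with a median of 331, and the AKO rats ranged from 74.1 to 474 with a median of 293. The 3 groups overlapped, and the AKO rats held both the lowest (6KAH98) and the highest (6AKO35) level of all 30 rats. Igf1r, the receptor of insulin-like growth factor 1 and the closest relative of Insr, had medians of 218 in WT rats, 209 in HIP rats and 206 in AKO rats. Its lowest level was again in 6KAH98, 69.2 normalized counts.

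The 300 bases around the start of Insr and Gsk3b are shown because these genes varied most alike from rat to rat, as the pairs of genes show further on. They run from 250 bases before to 50 bases after the start, in the rat assembly GRCr8, with sequence and position from RefSeq, and promoters were matched by symbol for 7 of the 9 genes and not for Irs2 and Foxo3. Insr is at chr12:6128754-6129053 and Gsk3b at chr11:76153200-76153499, both on the minus strand, and both sequences are written 5′ to 3′ along the gene. Capitals mark a FoxO element (TGTTTAC, which is GTAAACA on the other strand) in Insr and an E-box (CACGTG) in Gsk3b.
Insr: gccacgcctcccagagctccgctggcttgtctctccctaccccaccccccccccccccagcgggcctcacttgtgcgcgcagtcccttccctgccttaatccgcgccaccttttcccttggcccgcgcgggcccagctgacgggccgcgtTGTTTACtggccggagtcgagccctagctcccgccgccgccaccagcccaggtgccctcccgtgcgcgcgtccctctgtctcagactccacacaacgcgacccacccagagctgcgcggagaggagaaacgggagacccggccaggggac
Gsk3b: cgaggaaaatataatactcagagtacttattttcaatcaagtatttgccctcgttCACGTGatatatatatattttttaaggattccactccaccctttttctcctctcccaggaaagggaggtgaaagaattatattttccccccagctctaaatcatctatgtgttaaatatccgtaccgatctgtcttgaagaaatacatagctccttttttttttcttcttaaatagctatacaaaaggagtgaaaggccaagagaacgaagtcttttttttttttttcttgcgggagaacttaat
The FoxO element of Insr begins 100 bases before the start. It was the only such element among the 7 promoters, and 3.76% of 27457 promoters of this length held it on either strand. The E-box of Gsk3b begins 195 bases before the start, and 6.65% of all promoters held that motif. The pair differs in base composition, with 71.3% G and C in Insr and 34.7% in Gsk3b. Among the other members, GC boxes (GGGCGG or CCGCCC, in 34.9% of all promoters) were present 7 times in Pik3r1 and 3 times in Irs1. A match of letters is a description and shows no binding.

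**Figure D1:**
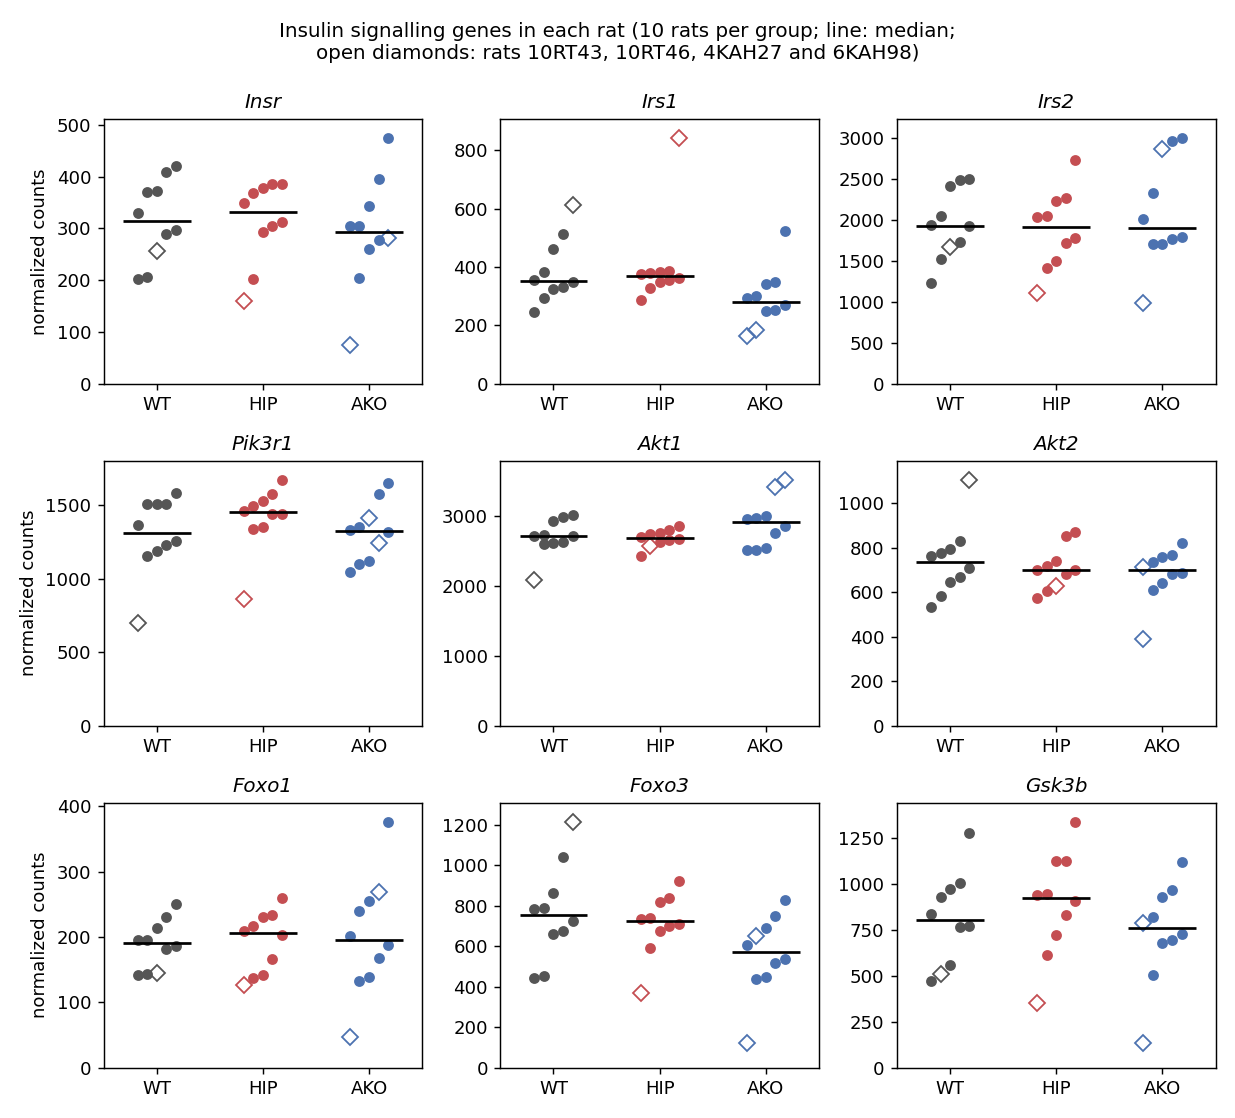
Normalized counts (y axis, linear from 0) of the 9 insulin signaling genes in each rat of the WT, HIP and AKO groups (x axis), with the median of each group as a line and open diamonds for 10RT43, 10RT46, 4KAH27 and 6KAH98, the 4 rats with the lowest rank correlation with the others. The groups overlapped for every gene, AKO rat 6KAH98 was lowest for Insr, Irs2, Foxo1, Foxo3 and Gsk3b, and HIP rat 10RT46 was highest for Irs1 with 841 normalized counts.

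Irs1 (ENSRNOG00000014597) had 246 normalized counts in the lowest, 352 in the median and 613 in the highest WT rat. In HIP rats it ranged from 289 to 841 with a median of 369. In AKO rats it ranged from 165 to 524 with a median of 281. The AKO rats were thus the lowest group, 9 of 10 of them below the WT median, and all 10 HIP rats were above the AKO median. The highest HIP rat, 10RT46, was the rat with pineal and choroid plexus genes, and the highest WT rat, 10RT43, was the rat with cerebellum genes. The next WT rats, 10RT50 and 10RT51, and the highest AKO rat, 6AKO35, were those with the highest means of the olfactory bulb genes in their groups, 9.03, 9.25 and 8.95. Over all 30 rats, however, Irs1 had a Spearman's rho of 0.15 (permutation p = 0.423) and a Pearson's r of 0.22 (permutation p = 0.234) with that mean.

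Irs2 (ENSRNOG00000023509), the other adaptor and itself a FoxO target, had medians of 1929 in WT rats, 1908 in HIP rats and 1899 in AKO rats. Its range widened from 1228 to 2497 in WT rats to 982 to 2995 in AKO rats. The order WT, HIP, AKO of the medians was therefore within the spread of each group. Pik3r1 (ENSRNOG00000018903), the regulatory subunit that holds the PI3K catalytic subunit to the adaptor, had medians of 1310 in WT, 1448 in HIP and 1324 in AKO rats. Its lowest levels were 696 in 10RT43 and 861 in 10RT46, and 9 of 10 HIP rats were above the WT median.

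Akt1 (ENSRNOG00000028629) was the steadiest of the 9 genes. It ranged from 2078 to 3000 in WT rats (median 2708), from 2427 to 2851 in HIP rats (median 2682) and from 2513 to 3503 in AKO rats (median 2901). All 10 HIP rats were below the AKO median, but the groups overlapped. Its standard deviation (SD) within groups was 0.14 on the log2 scale, and 8.03% of 11590 genes with a mean of at least 100 normalized counts had a smaller SD. Akt2 (ENSRNOG00000018677), the Akt kinase known for its part in insulin-driven glucose uptake, had medians of 736, 698 and 700 in WT, HIP and AKO rats. It was highest in 10RT43 with 1103 and lowest in AKO rat 4KAH27 with 389 normalized counts.

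Foxo1 (ENSRNOG00000013397) had medians of 191 in WT, 206 in HIP and 195 in AKO rats, and its range was 141.4 to 250, 126 to 259 and 46.2 to 376. Foxo3 (ENSRNOG00000000299) had 444 normalized counts in the lowest, 754 in the median and 1213 in the highest WT rat. The HIP rats ranged from 369 to 923 with a median of 723, and the AKO rats from 124 to 828 with a median of 574. The AKO group was again the lowest by its median, 9 of 10 AKO rats being below the WT median, but its highest rats overlapped the middle of both other groups. Gsk3b (ENSRNOG00000002833), a kinase that insulin switches off through Akt, had medians of 803 in WT, 925 in HIP and 760 in AKO rats. Its range was 472 to 1279, 353 to 1338 and 133.6 to 1122. For its relative Gsk3a the medians were 5474, 5356 and 5555.

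Gsk3b, Foxo3, Foxo1 and Insr varied more between rats of the same group than most genes. Their SD within groups was 0.65, 0.56, 0.54 and 0.53 on the log2 scale, beside a median of 0.25 over all 11590 genes, and 93.7%, 90.5%, 89.8% and 89.3% of the genes had a smaller SD. Without 10RT43, 10RT46, 10RT48 and 6KAH98 the SDs were 0.38, 0.32, 0.38 and 0.35, and the percentages were 89.3%, 83.4%, 89.3% and 86.8%. Irs1 (0.43) and Irs2 (0.41) lay between these genes and Pik3r1 (0.28) and Akt2 (0.27). These SDs compare rats and not genes with each other in level, since counts were not divided by gene length.

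The comparison of HIP with WT rats asked whether the genes differ in the brain of rats with pancreatic human amylin. None of the 9 genes had a p-value under 0.05 in a two-sided limma test (p = 0.307 to 0.941), and all adjusted p-values, after Benjamini-Hochberg over all 17085 genes tested, were 0.999. The log2 fold changes ran from -0.08 (Foxo3) to 0.14 (Pik3r1), 4 positive and 5 negative. Their median size was 0.05 beside 0.09 over all genes tested. Among all genes tested, 439 or 2.57% had a p-value under 0.05 (1.11% higher and 1.46% lower in HIP rats) and 0% an adjusted p-value under 0.05. The 95% intervals of the 9 genes reached from -0.44 to 0.56 on the log2 scale at their widest, which corresponds to 1.48-fold. The narrowest was that of Akt1, -0.12 to 0.11. The data thus did not detect a difference of any of the 9 genes, and the intervals give the sizes of difference that remain possible.

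**Figure D2:**
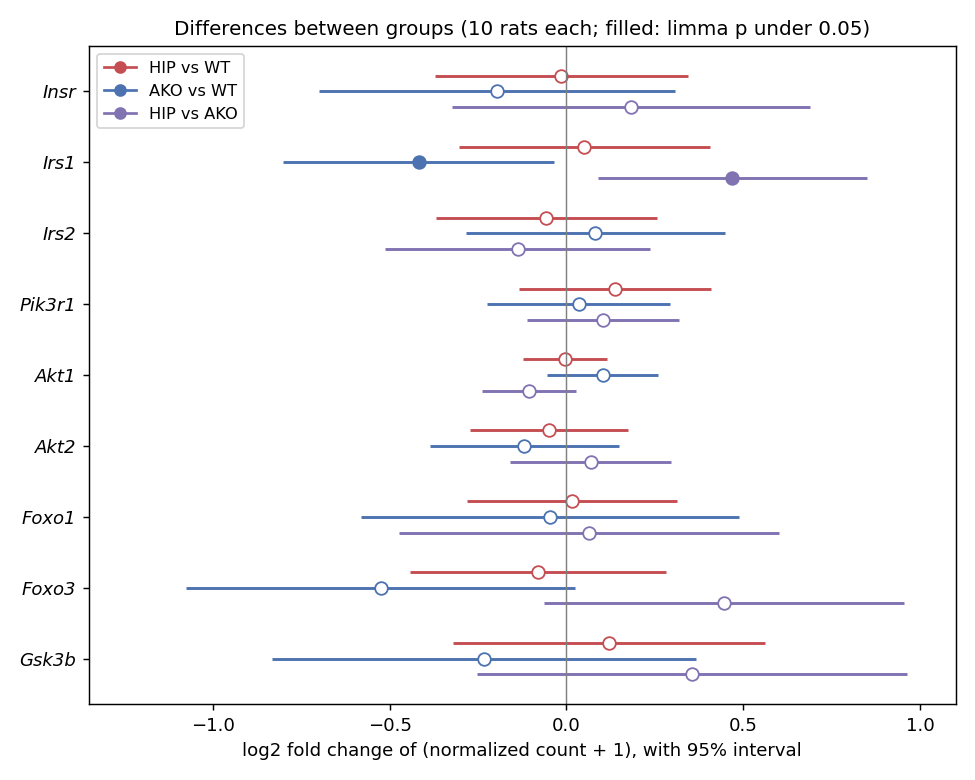
Log2 fold changes (x axis, points) of the 9 insulin signaling genes (y axis) with 95% intervals from limma (lines) for HIP vs. WT, AKO vs. WT and HIP vs. AKO rats, 10 rats per group, filled where the unadjusted p-value was under 0.05. Irs1 is filled in both comparisons with AKO rats (-0.42 and 0.47), and all intervals of HIP vs. WT include 0.

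With the estimated reads of each rat as a covariate, 24% of all genes tested had a p-value under 0.05 in HIP vs. WT rats. Akt2 was the only such gene of the 9 (limma, log2 fold change -0.27, p = 0.0362). Beside that share the count is not a result about the pathway. The median of the estimated reads was 15.7 M for HIP and 19.1 M for WT rats. Without 10RT43, 10RT46 and 10RT48 none of the 9 genes had a p-value under 0.05, beside 4.94% of all genes tested. That fit had no covariate, and the difference of Akt2 in it was 0.00 (limma, p = 0.993). With all HIP and WT rats and no covariate it was -0.05 (limma, p = 0.644).

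In AKO vs. WT rats, Irs1 was lower, with a log2 fold change of -0.42 (standard error (SE) 0.18, 95% interval -0.80 to -0.04), or 0.748-fold. Among the 9 genes no other had a p-value under 0.05 before adjustment (limma for Irs1, p = 0.0335), and its adjusted p-value was 0.488. A permutation test of the mean log2 levels gave p = 0.0449. This 1 of 9, or 11.1%, stands beside 9.34% of 17058 genes tested (5.23% higher and 4.12% lower in AKO rats), while 0.0997% passed 0.05 after adjustment. The share of the 9 genes was near that of all genes, and the count is not a result about the pathway. Foxo3 had the largest log2 fold change, -0.53 (SE 0.26, 95% interval -1.07 to 0.02, limma p = 0.0602, permutation p = 0.0616). Its p-value was under 0.05 with all 30 rats in 1 fit (-0.53, limma p = 0.035) and with sample-quality weights (-0.43, p = 0.0122), settings under which 11.8% and 23% of all genes tested had such a p-value. The other 7 genes had p-values of 0.193 (Akt1, log2 fold change 0.10) to 0.857 (Foxo1, -0.05).

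For the lower Irs1 of AKO rats the p-value was near the threshold. The p-value was over 0.05 when any of 7 rats was left out, WT rats 10RT43 (-0.34, limma p = 0.0654), 10RT50 (-0.37, p = 0.0639) and 10RT51 (-0.38, p = 0.0575) and AKO rats 4KAH27 (-0.33, p = 0.0713), 6KAH98 (-0.35, p = 0.0673), 6AKO52 (-0.40, p = 0.0509) and 7AKO19 (-0.40, p = 0.0503). The direction was the same in all 20 fits, from -0.52 (limma, p = 0.00559) without AKO rat 6AKO35 to -0.33 without 4KAH27. Without 10RT43 and 6KAH98 together the log2 fold change was -0.27 (limma, p = 0.122), and with AKO-numbered rats as the only AKO rats it was -0.26 (limma, p = 0.192). It was -0.17 (limma, p = 0.269) when 4KAH27 was left out with 10RT43 and 6KAH98. The difference of Foxo3 was -0.30 (limma, p = 0.0978) without 6KAH98. The p-value of Foxo3 was under 0.05 when WT rats 10RT55 or 10RT57 or AKO rats 6AKO35, 6KAH99 or 7AKO30 were left out (log2 fold changes -0.57 to -0.60).

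In HIP vs. AKO rats, Irs1 was higher in HIP rats, with a log2 fold change of 0.47 (SE 0.18, 95% interval 0.09 to 0.85), or 1.38-fold. Again no other member of the 9 passed 0.05 before adjustment (limma for Irs1, p = 0.0181, adjusted p = 0.300, permutation test p = 0.0241). Of all 17092 genes tested 12.7% had such a p-value (5.85% higher and 6.9% lower in HIP rats) and 0.17% an adjusted p-value under 0.05, so that 11.1% of the 9 genes was near the share of all genes. The p-value stayed under 0.05 with each of the 20 rats left out (0.00273 to 0.0401). It was 0.0524 (log2 fold change 0.33) without 10RT46 and 10RT48, and 0.0951 (0.27) when 6KAH98 was also left out. Without 10RT46, 4KAH27 and 6KAH98 the difference of Irs1 was 0.18 (limma, p = 0.151), and Foxo3 (0.34, p = 0.0115) and Pik3r1 (0.19, p = 0.0376) had a p-value under 0.05, as had 18.9% of all genes tested. Foxo3 (0.45, limma p = 0.0837), Gsk3b (0.36, p = 0.238) and Akt1 (-0.11, p = 0.109) had the next largest differences or smallest p-values. In the fit without 10RT46, 10RT48 and 6KAH98, 15.1% of all genes tested had a p-value under 0.05. Foxo3 was the only such gene of the 9 (limma, 0.30, p = 0.0232). Its p-value was also under 0.05 without 10RT46 alone (0.55, limma p = 0.0334) or without 7AKO30 alone (0.52, p = 0.0466), while its difference was 0.22 (p = 0.147) without 6KAH98 alone. Pik3r1 was under 0.05 without 10RT46 (0.18, p = 0.0367). With sample-quality weights Irs1, Foxo3 (0.44, limma p = 0.00352) and Pik3r1 (0.21, p = 0.02) had a p-value under 0.05, beside 25.1% of all genes tested. The comparisons with AKO rats share those 10 rats, so that the differences of Irs1 from WT and from HIP rats are not independent.

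Marker genes of the striatum moved against Irs1. Over the 30 rats, Irs1 was lower where the mean of 7 striatum genes was higher (Spearman's rho = -0.62, permutation p = 0.00037, Pearson's r = -0.48, permutation p = 0.0066, adjusted over 126 relations of genes and marker lists 0.0108 and 0.062). Without the 2 rats farthest from the median of Irs1 the values were -0.55 and -0.38. The striatum mean ranged from 7.49 to 10.6 in WT rats (median 8.57), from 8.04 to 10.2 in HIP rats (median 8.17) and from 8.03 to 10.5 in AKO rats (median 8.54). With this mean as a covariate, the log2 fold change of Irs1 was -0.44 in AKO vs. WT rats (limma p = 0.0126). It was 0.37 in HIP vs. AKO rats (p = 0.044). With the mean of neocortical layer genes as a covariate the values were -0.37 (limma p = 0.0382) and 0.61 (p = 0.00361). That mean was 4.03 in WT rat 10RT43, beside 9.14 to 10.4 in the other 29 rats. The part of tissue makeup in the differences of Irs1 was not tested. The mean of 5 neuron genes, which Foxo3 followed over the 30 rats (rho = 0.67), was 13.6 in the median AKO rat and 13.8 in the median WT and HIP rat, and its part in the differences was not tested.

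Insr and Gsk3b rose and fell together from rat to rat, and this relation was the closest among the 36 pairs of the 9 genes. Spearman's rho was 0.94 and Pearson's r 0.97 over the 30 rats, with permutation p-values of 1e-05, the smallest the permutations can give, and adjusted p-values of 0.00024 and 0.00012 over the 36 pairs. Without the 2 rats with the Insr level farthest from the median, rho was 0.93 and r was 0.91. Without 10RT43, 10RT46, 10RT48 and 6KAH98 rho was 0.92. The coefficient was 0.94 within WT rats, 0.94 within HIP rats and 0.98 within AKO rats. Each group of 10 rats thus showed the relation.

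Foxo3 joined this pair. Its rho was 0.73 with Insr and 0.73 with Gsk3b (permutation p = 2e-05 for both, adjusted p = 0.00024), and without the 2 farthest rats it was 0.67 and 0.66. Within groups, rho of Foxo3 with Insr was 0.60 in WT, 0.76 in HIP and 0.92 in AKO rats. These were the only 3 pairs with a rho above 0.7. Of the 36 pairs, 29 (80.6%) had a positive rho, the median was 0.26, and 8.33% were above 0.7. Over all pairs among 15526 genes that averaged at least 10 normalized counts, 49.7% had a positive rho, the median was -0.0025, and 0.704% were above 0.7.

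**Figure D3:**
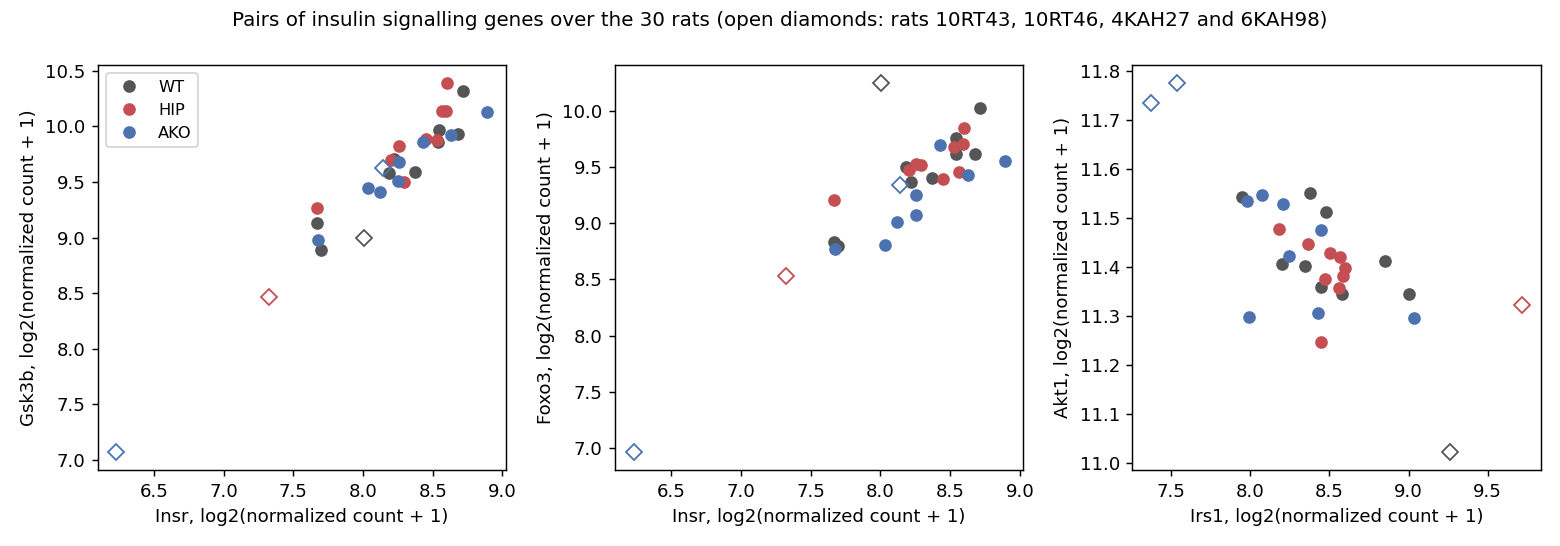
Log2(normalized count + 1) of 3 pairs of insulin signaling genes in the 30 rats, with Insr against Gsk3b (left), Insr against Foxo3 (middle) and Irs1 against Akt1 (right), colored by group, with open diamonds for 10RT43, 10RT46, 4KAH27 and 6KAH98, the 4 rats with the lowest rank correlation with the others. The first pair lies along a line in all groups (rho = 0.94), while Irs1 and Akt1 run in opposite directions (rho = -0.66).

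Akt1 ran against Irs1 and, less closely, against Foxo3 and Insr. Its rho was -0.66 with Irs1 (permutation p = 0.00013, adjusted p = 0.00117, Pearson's r = -0.74) and remained -0.61 without the 2 rats with the Irs1 level farthest from the median. It was -0.62 within WT, -0.42 within HIP and -0.75 within AKO rats. Akt1 was also opposite to Foxo3 (rho = -0.52, adjusted p = 0.0126) and to Insr (-0.48, adjusted p = 0.0232), with r of -0.61 and -0.47. Without the 2 rats farthest from the median of Akt1, rho was -0.41 and -0.53 and r was -0.26 and -0.37. Within HIP rats rho was -0.43 with Foxo3 and -0.30 with Insr, beside -0.81 and -0.43 in WT and -0.49 and -0.68 in AKO rats. Irs1 and Irs2, which do similar work in the cell, had a rho of 0.03 (adjusted permutation p = 0.917). The 2 FoxO genes had a rho of 0.21 and an r of 0.62 (adjusted permutation p = 0.353 and 0.0166), and r was 0.30 without the 2 rats farthest from the median of Foxo1. All values of a rat come from 1 library and share its tissue piece, depth and normalization. For the pair of Insr and Gsk3b, rho with the estimated reads was 0.18 and 0.05.

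In AKO rat 6KAH98 the pattern was at its extreme. It had 74.1 normalized counts of Insr, 133.6 of Gsk3b, 124 of Foxo3 and 46.2 of Foxo1, each the lowest of the 30 rats, and the highest Akt1 of the 30 rats, 3503. The next lowest AKO rat had 203, 503, 437 and 132.6 normalized counts of the first 4 genes. Pdpk1, the kinase that activates Akt, had 59.5 in this rat, beside a median of 390 in AKO rats. The same rat had the highest level of Ndufb7, a subunit of respiratory complex I, with 2123 normalized counts.

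The genes most like each of the 9 in rank over the 30 rats were looked up among 15525 other genes with a mean of at least 10 normalized counts. The closest 3 with a gene symbol are named, and for Gsk3b and for Akt2 a gene without a symbol at rank 2 was passed over. For Insr these were Lcor, a nuclear receptor corepressor (rho = 0.96), Zfp704 (0.95) and Pdpk1 (0.95), and Gsk3b was at rank 11. For Gsk3b they were Pdpk1 (0.96), Tmem245 (0.96) and Ppp1r9a (0.96), and for Foxo3 Rmnd5a (0.96), the calcium channel subunit Cacnb4 (0.94) and Pik3ca (0.94), which encodes a catalytic subunit of PI3K. The genes most opposite to Insr were the translation initiation factor gene Eif3g (-0.88) and the signal peptidase gene Spcs1 (-0.87), and the gene most opposite to Gsk3b was Ndufb7 (-0.88). These 3 opposite genes were picked after their values were seen. All are the extremes of many genes and are given as a description with no test.

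For Irs1 the closest genes were Pik3r3, which encodes another regulatory subunit of PI3K (0.87), the type I receptor gene Acvr1 (0.86) and the gap junction gene Gjd2 (0.84). For Irs2 they were the AP-1 family member Fosl2 (0.88), Rundc1 (0.83) and Midn (0.82). For Pik3r1 they were the synaptic scaffold gene Magi2 (0.88), the ion exchanger gene Slc24a2 (0.84) and Sorcs1 (0.84). Akt1 was closest to Gas2l1 (0.84), Map3k10 (0.83) and Fastk (0.83), Akt2 to Boc (0.84), AC131360.1 (0.80) and the elastic fiber gene Fbln5 (0.79), and Foxo1 to the receptor gene Bmpr1a (0.84), the cystine transporter gene Slc7a11 (0.83) and Tmod2 (0.80).

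**Figure D4:**
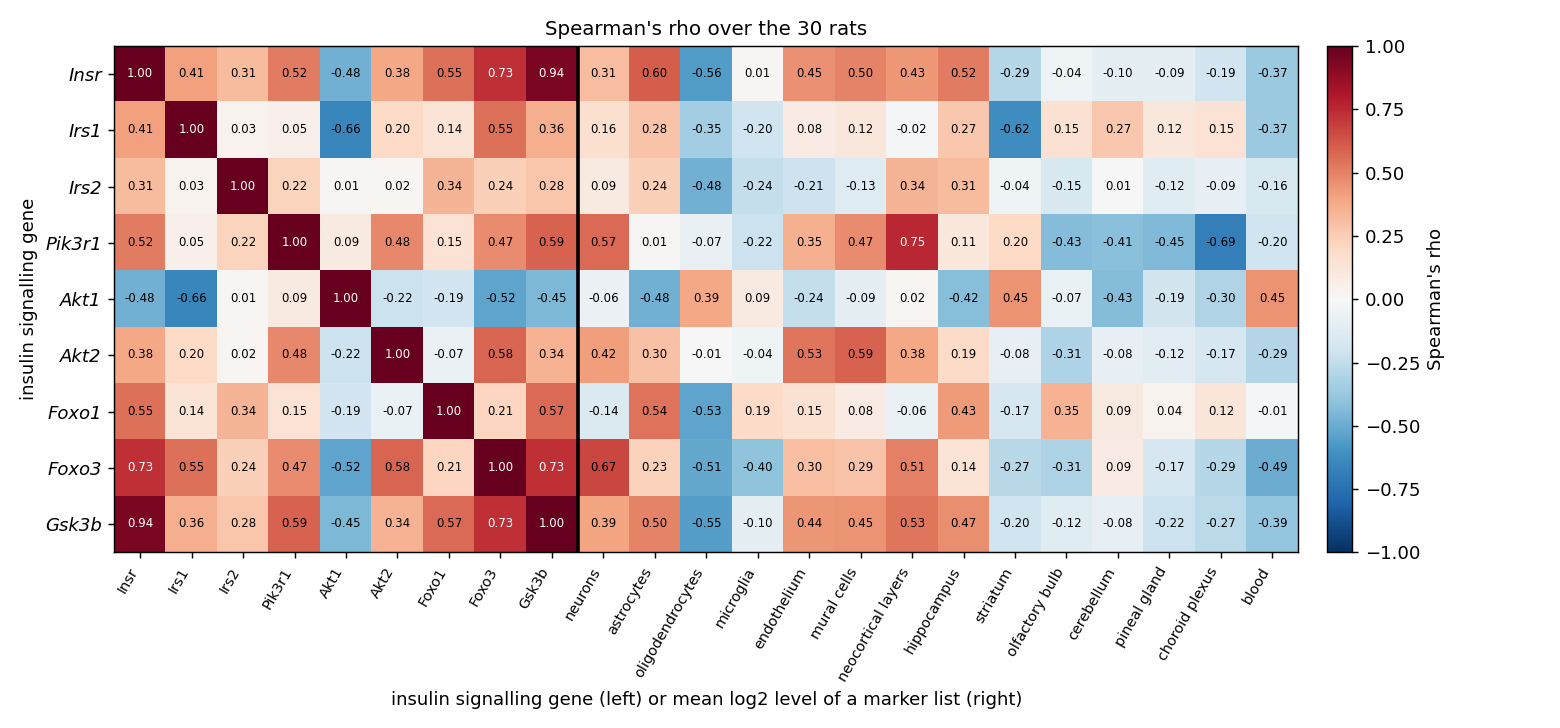
Spearman's rho over the 30 rats between the 9 insulin signaling genes (rows) and each other (left of the line) or the mean log2 level of marker gene lists of cell types and brain regions (right of the line), from -1 (blue) to 1 (red). Insr, Foxo3 and Gsk3b form a block of high values (0.73 to 0.94), and Pik3r1 has the highest value with a marker list (0.75, neocortical layers).

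Of the 126 relations of the 9 genes with 14 marker lists, 7 had adjusted p-values under 0.05 by both coefficients. Pik3r1 was higher where neocortical layer genes were higher (rho = 0.75, r = 0.77, permutation p = 1e-05 for both, the smallest possible, adjusted p = 0.00126 for both). It was lower where choroid plexus genes were higher (rho = -0.69, r = -0.72, adjusted permutation p = 0.00126 and 0.0155). The 2 rats with the highest choroid plexus means, 10RT46 (9.0) and 7AKO19 (7.58), had the lowest Pik3r1 of their groups, 861 and 1046 normalized counts, and without both rho was -0.61 and r was -0.72. Within groups rho was -0.75 in WT, -0.41 in HIP and -0.62 in AKO rats. The median of the choroid plexus mean was 2.53 in WT, 2.51 in HIP and 3.02 in AKO rats, so that most rats had few counts of these genes. Without the 2 rats farthest from the median of Pik3r1, rho was 0.70 and -0.61. Foxo3 followed the neuron genes (rho = 0.67, adjusted permutation p = 0.00126), and Akt2 the endothelium genes, of which 3 of 5 were in the table (rho = 0.53, adjusted permutation p = 0.029). Insr was higher with the hippocampus genes, 4 of 5 in the table (rho = 0.52, adjusted permutation p = 0.0341). Insr and Irs2 were lower where oligodendrocyte genes were higher (rho = -0.56 and -0.48, adjusted permutation p = 0.0275 and 0.0491). Regional and cellular makeup differed between libraries, and its part in the relations among the 9 genes was not tested.

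The other genes of the pathway and of the FoxO response were 78 genes chosen by role, of which 74 were in the table and Ins1, Ins2, Irs4 and Foxo4 are not analyzed here. Between HIP and WT rats, 3 of the 74 (4.05%, beside 2.57% of all genes tested) had a p-value under 0.05, 1 higher and 2 lower in HIP rats, and none an adjusted one. Txnip, listed here among FoxO targets and known to restrain glucose uptake, was higher in HIP rats. It ranged from 633 to 1367 normalized counts in WT rats (median 784), from 701 to 1815 in HIP rats (median 1080) and from 676 to 1365 in AKO rats (median 997). The log2 fold change was 0.39 (95% interval 0.05 to 0.73, limma p = 0.0276), and it was 0.31 (p = 0.0593) without HIP rat 12RT23 and 0.29 (p = 0.0978) without 10RT43, 10RT46 and 10RT48.

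Gadd45a, a FoxO target that acts in growth arrest and DNA repair, was lower in HIP rats (-0.37, limma p = 0.0241), and its highest rat was 10RT43 with 380 normalized counts. Its difference was -0.25 without that rat and -0.24 (p = 0.0535) without 10RT43, 10RT46 and 10RT48. With 10RT48 kept, the difference was -0.24 and the p-value was under 0.05 (limma, p = 0.0435). Sh2b1, an adaptor that supports signaling of the insulin and leptin receptors, was also lower in HIP rats (-0.13, limma p = 0.0343), with a p-value under 0.05 in 13 of 20 fits with a rat left out and the largest, 0.0682, without HIP rat 10RT37. It was -0.09 (p = 0.153) without 10RT43, 10RT46 and 10RT48. The other FoxO targets, 13 of 15 tested, had p-values over 0.05. None of the 10 pathway brakes, 10 genes of the mTOR arm, 7 of the Ras-MAPK arm or 5 of glucose uptake had a p-value under 0.05.

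**Figure D5:**
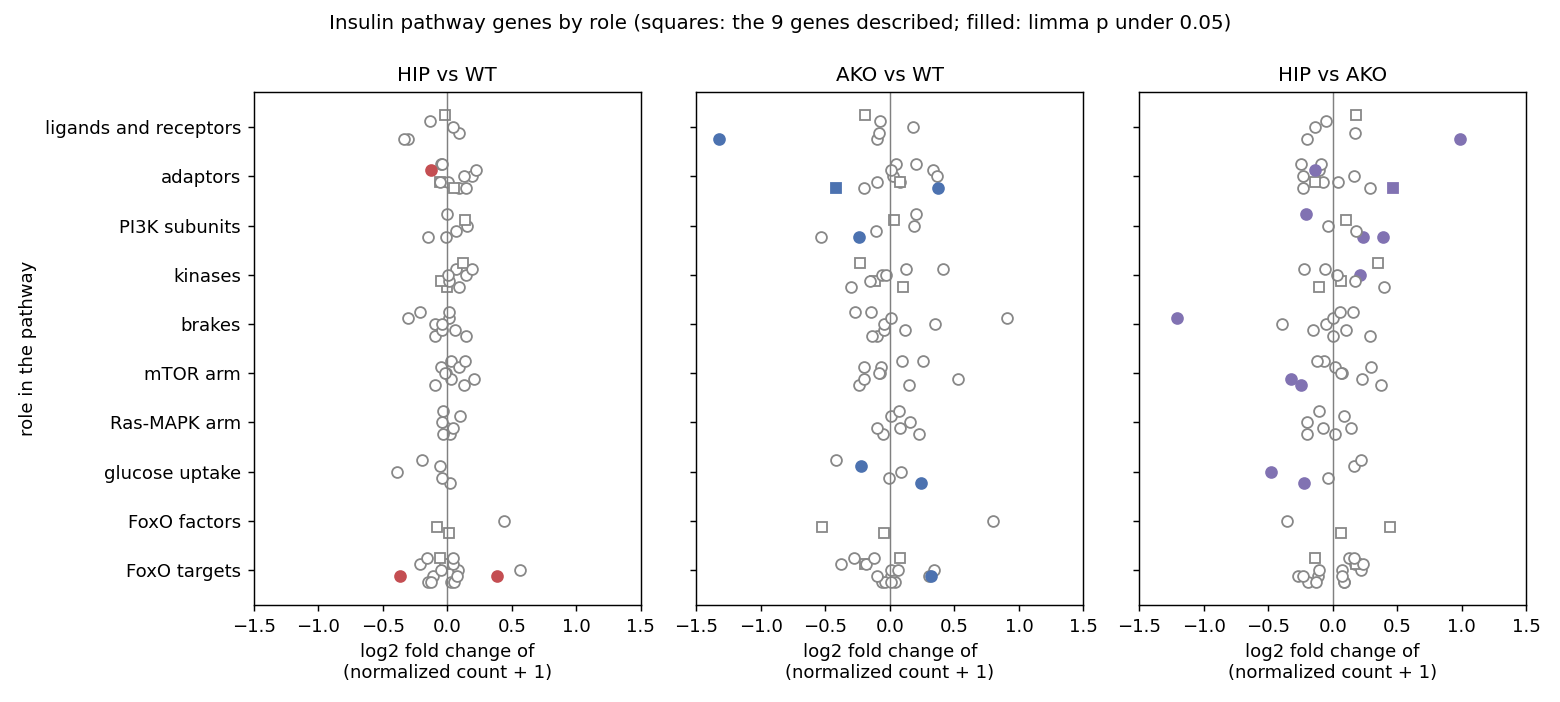
Log2 fold changes (x axis) of the insulin pathway and FoxO target genes by role (y axis, points spread vertically for visibility) for the 3 comparisons of 10 rats with 10 rats, squares for the 9 genes described in detail and filled where the limma p-value was under 0.05. Insr and Irs2 are drawn in their role and again among FoxO targets, and the filled points farthest from 0 are the receptor gene Insrr (-1.32 and 0.99) and the brake Socs3 (-1.21).

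In AKO vs. WT rats, 6 of the 74 genes (8.11%, beside 9.34% of all genes tested) had a p-value under 0.05, 3 higher and 3 lower in AKO rats. Insrr, a receptor tyrosine kinase related to Insr that responds to alkaline pH, was the lowest. It ranged from 8.10 to 36.4 normalized counts in WT rats (median 20.8), from 6.46 to 32.5 in HIP rats (median 15.7) and from 3.02 to 20.5 in AKO rats (median 6.46). The groups overlapped, and the level was low in every rat. The log2 fold change was -1.32 (SE 0.31, 95% interval -1.96 to -0.68, limma p = 0.000303, adjusted p = 0.107), it kept a p-value under 0.05 with each of the 20 rats left out, and it was -1.32 (p = 0.000729) without 10RT43 and 6KAH98. Pik3ca was lower in AKO rats (-0.24, limma p = 0.025), with p-values under 0.05 in all 20 fits with a rat left out and 0.0705 (-0.16) without 10RT43 and 6KAH98.

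Tbc1d1, a regulator of glucose transporter traffic, was lower (-0.22, limma p = 0.0276, and 0.055 without WT rat 10RT44), and it was -0.16 (p = 0.0843) without 10RT43 and 6KAH98. Txnip (0.32, p = 0.0352), the adaptor Shc1 (0.37, p = 0.0426) and the glucose transporter gene of the blood-brain barrier Slc2a1 (0.24, p = 0.0467) were higher. These 3 kept a p-value under 0.05 in 10, 10 and 7 of 20 fits with a rat left out, with the largest p-values of 0.0696 without 10RT44 (0.27), 0.0912 without 10RT55 (0.27) and 0.0912 without 4KAH27 (0.16). Without 10RT43 and 6KAH98, Txnip (0.34, limma p = 0.0313) and Shc1 (0.46, p = 0.0178) had a p-value under 0.05 and Slc2a1 did not (0.20, p = 0.1). With 4KAH27 also left out, Txnip lost the call (0.30, limma p = 0.062) and Shc1 kept it (0.36, p = 0.0393). Rat 4KAH27 had the highest Slc2a1 (5158) and Shc1 (527) of the AKO rats.

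In HIP vs. AKO rats, 11 of the 74 genes (14.9%, beside 12.7% of all genes tested) had a p-value under 0.05, 4 higher and 7 lower in HIP rats, and none an adjusted one. Among 5 PI3K subunit genes, Pik3r3 (0.39, limma p = 0.00389) and Pik3ca (0.24, p = 0.0262) were higher and Pik3r2 (-0.21, p = 0.0162) was lower in HIP rats. Pik3r3 ranged from 606 to 1217 in HIP rats (median 783) and from 479 to 881 in AKO rats (median 624), and it reached 5935 in WT rat 10RT43. Without 10RT46, 10RT48 and 6KAH98, Pik3r3 (0.28, limma p = 0.0234) and Pik3ca (0.20, p = 0.0234) kept a p-value under 0.05 and Pik3r2 did not (-0.13, p = 0.0961).

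Socs3, which is induced by cytokines and blocks the insulin receptor and its adaptors, was lower in HIP than in AKO rats (-1.21, 95% interval -2.13 to -0.28, limma p = 0.0127). It ranged from 18.96 to 48.5 in HIP rats (median 25.5), from 21.0 to 59.8 in WT rats (median 33.3) and from 31.9 to 110 in 9 AKO rats, and it was 1062 in AKO rat 4KAH27. Without that rat the difference was -0.77, and without 10RT46, 10RT48 and 6KAH98 it was -1.44 (limma, p = 0.00936). Slc2a4, the insulin-responsive glucose transporter gene, was lower in HIP rats (-0.47, p = 0.0119), with a median of 30.9 beside 42.3 in AKO rats, and it kept a p-value under 0.05 in all 20 fits. Insrr was higher in HIP rats (0.99, limma p = 0.00421), with p-values under 0.05 in all 20 fits. Without 10RT46, 10RT48 and 6KAH98 the values were -0.48 (limma, p = 0.021) for Slc2a4 and 0.86 (p = 0.0238) for Insrr.

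In the mTOR arm, Akt1s1, an Akt substrate that inhibits mTOR (-0.24, limma p = 0.0108), and Eif4ebp1, a repressor of translation (-0.32, p = 0.0292), were lower in HIP rats, and Eif4ebp1 had p = 0.0605 without HIP rat 10RT41. Sh2b1 (-0.14, limma p = 0.0349, and 0.069 without 10RT37) and Slc2a1 (-0.23, p = 0.0464, and 0.0893 with -0.14 without 4KAH27) were lower. None of the 15 FoxO targets tested had a p-value under 0.05, and the smallest was that of Sod2, which encodes a mitochondrial antioxidant enzyme (0.17, limma p = 0.0541). Without 10RT46, 10RT48 and 6KAH98, Akt1s1 kept a p-value under 0.05 (-0.20, limma p = 0.0217), and Eif4ebp1 (-0.31, p = 0.0559), Sh2b1 (-0.11, p = 0.11) and Slc2a1 (-0.17, p = 0.16) did not. Of the relatives of the 9 genes, Igf1r (p = 0.387 to 0.6996) and Gsk3a (p = 0.252 to 0.477) were called in none of the 3 comparisons.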

How the data were processed

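RNA from brain tissue of 10 WT, 10 HIP and 10 AKO rats was sequenced, 1 library per rat. Per the submitters' processing notes, reads were handled in Partek Flow 10.0.22.0228 with STAR 2.7.8a, Bowtie2 and the rat genome rn7. The authors deposited counts per gene normalized with DESeq2, a signal that is not whole numbers. The steps between low values gave an estimate of the reads per rat, but only 84.6% to 87.5% of the values of a rat were whole multiples, so that no count test was run.

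Groups were taken from the genotype in the sample annotation. Rats were compared as separate animals. Levels were compared as log2(normalized count + 1) with limma 3.58.1 in R 4.3.3 (empirical Bayes with a mean trend, two-sided) over all genes with a mean of at least 1 normalized count in the rats compared, with Benjamini-Hochberg adjustment over these genes. Fold changes are on this scale, which understates those of low genes. An unadjusted p-value under 0.05 was the threshold for a call, the rule of the study. Single genes were also tested by permutation of the mean log2 level, and correlations by permutation, with 100000 resamples (scipy 1.17.1, two-sided). Adjustment was over 36 pairs or 126 relations with marker lists. On simulated HIP vs. WT data of 17068 genes, 187 of 200 genes changed 2-fold were recovered at an adjusted p-value under 0.05, with 10 unchanged genes called. Recovery of smaller changes was not tested. The log2 fold changes of the insulin signaling genes in HIP vs. WT rats were at most 0.14 in size. Their SD within groups reached 0.65 (Gsk3b). The simulation therefore does not show how often differences of these genes would be found.

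The 9 genes, the pathway lists and the marker lists were chosen with earlier results of these data known. Named in the text were the 9 genes, their paralogs, pathway genes with an unadjusted p-value under 0.05 or with the smallest p-values, and the 3 genes with a symbol closest in rank to each of the 9. Alternatives were another pseudocount (0.1), filter or scaling, all 30 rats in 1 fit, sample-quality weights, covariates, and rats left out. The omission of 10RT43, 10RT46 and 6KAH98 together with 10RT48 or with 4KAH27 was chosen after seeing the data. Promoters came from RefSeq. Some genes that the rule names or the counts include are not reported here by name.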

Additional observations from a re-analysis of the deposited data

Results flagged for a closer look

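Within each group of 10 rats, the highest or lowest level was compared with the nearest other rat, and it stood apart where that gap, divided by the whole range, was over Dixon's 95% critical value. This held in 19 of 75 groups of 25 genes (25.3%) and in 7 of the 27 groups of the 9 insulin signaling genes (25.9%), beside 19.97% of the groups of all 15526 genes with a mean of at least 10 normalized counts. For independent samples chance would give 3.75 of 75. The libraries are shared between genes, so that the groups are not independent.

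WT rat 10RT43, the rat with cerebellum genes, stood apart with 695.99 normalized counts of Pik3r1 (nearest 1154), 2078 of Akt1 (nearest 2600), 1103 of Akt2 (nearest 832), 380 of Gadd45a (nearest 225), 5935 of Pik3r3 (nearest 885) and 165 of Slc2a4 (nearest 51.3). HIP rat 10RT46, with pineal and choroid plexus genes, had 841 of Irs1 (nearest 386) and 861 of Pik3r1 (nearest 1339).

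AKO rat 4KAH27, which had the lowest means of endothelium (7.61) and microglia (7.67) genes of its group, had 389 of Akt2 (nearest 611), 325 of Gadd45a (nearest 213), 527 of Shc1 (nearest 378), 5158 of Slc2a1 (nearest 3420) and 1062 of Socs3 (nearest 110). AKO rat 6AKO35, with olfactory bulb genes, had 524 of Irs1 (nearest 347) and 881 of Pik3r3 (nearest 686). AKO rat 6KAH98 had 69.25 of Igf1r (nearest 164). HIP rat 10RT48 had 401 of Shc1 (nearest 294), HIP rat 10RT54 had 3750.5 of Pik3r2 (nearest 3163) and HIP rat 12RT23 had 192 of Gadd45a (nearest 149.8). The part of tissue makeup in these values was not tested.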

How the results depend on the processing

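The log2 fold changes of the 9 genes, recomputed with limma under 360 combinations of gene, comparison and setting, kept their direction and side of the threshold in 309, lost the call in 7, gained one in 9 and turned in 35. Leaving out 6KAH98, an AKO rat, changes nothing in HIP vs. WT rats. The fit of that comparison without 10RT43, 10RT46 and 10RT48 is therefore counted again among these combinations. In HIP vs. WT rats the differences were small and turned for Foxo1 with sample-quality weights (-0.0024) and the neocortical covariate (-0.018), for Irs1 (-0.046) and Akt1 (0.020) with the striatum covariate, for Irs1 (-0.16), Irs2 (0.029) and Akt1 (0.11) with estimated reads, and for Insr (0.029), Irs1 (-0.0041), Irs2 (0.018), Akt2 (0.00082) and Foxo3 (0.080) without 10RT43, 10RT46 and 10RT48, with or without 6KAH98. Without 10RT43 and 10RT46, Insr (0.059), Irs2 (0.0029), Akt2 (0.034) and Foxo3 (0.10) turned. In AKO vs. WT rats Pik3r1 turned with weights (-0.17), the neocortical covariate (-0.021), without 10RT43 (-0.062), also without 6KAH98 (-0.054), and with AKO-numbered rats (-0.037), and Foxo1 turned without 10RT43 and 6KAH98 (0.13). Without 10RT43, 4KAH27 and 6KAH98, Pik3r1 (-0.068), Akt1 (-0.0046), Akt2 (0.034) and Foxo1 (0.083) turned. In HIP vs. AKO rats Insr (-0.018) and Pik3r1 (-0.026) turned with the neocortical covariate and Foxo1 without 10RT46, 10RT48 and 6KAH98 (-0.10) or without 10RT46, 4KAH27 and 6KAH98 (-0.043).

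The count of the 9 genes with a p-value under 0.05 was 1 (Akt2) with estimated reads in HIP vs. WT rats, beside 24% of all genes tested. In AKO vs. WT rats it was 2 (Irs1 and Foxo3) with all 30 rats in 1 fit (beside 11.8%) or with weights (beside 23%). It was 0 without the 3 rats (beside 10.3%) and with AKO-numbered rats (beside 7.45%). It was also 0 without the set of 4 rats with 10RT48 (beside 10.3%) or with 4KAH27 (beside 12.3%). In HIP vs. AKO rats it was 3 with weights (Irs1, Pik3r1 and Foxo3, beside 25.1%) and 2 with the neocortical covariate (Irs1 and Irs2, beside 8.48%). It was 2 without 10RT46, 4KAH27 and 6KAH98 (Pik3r1 and Foxo3, beside 18.9%) and 0 without 10RT46 and 10RT48 (beside 15.5%). Of the 74 other genes, 19 (25.7%, beside 24% of all genes tested in the same fit) had such a p-value with estimated reads in HIP vs. WT rats and 1 (1.35%, beside 4.81%) without 10RT43 and 10RT46. In AKO vs. WT rats there were 12 with all 30 rats (16.2%, beside 11.8%), 20 with weights (27%, beside 23%), 10 with the neocortical covariate (13.5%, beside 12.1%), 12 with the striatum covariate (16.2%, beside 10.1%), 10 with estimated reads (13.5%, beside 10.6%), 3 without 10RT43 and 6KAH98 (4.05%, beside 10.3%) and 2 with AKO-numbered rats (2.7%, beside 7.45%), and in HIP vs. AKO rats 20 with weights (27%, beside 25.1%). The cause was not tested.

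With each rat left out in turn, the counts of the 9 genes ranged from 0 to 0, 0 to 2 and 1 to 3 in HIP vs. WT, AKO vs. WT and HIP vs. AKO rats, the 3 without 10RT46. Those of the 74 genes ranged from 2 to 5 (5 without 10RT52), 2 to 12 (2 without 10RT38 or 10RT45, 3 without 10RT47 or 7AKO42, 12 without 6AKO35) and 7 to 16 (7 without 10RT41). Shares of all genes tested were not set beside these counts, which are therefore not a result about the 9 or the 74 genes. The ranges of genes that turned were, in HIP vs. WT rats, Insr -0.081 to 0.088, Irs1 -0.073 to 0.13, Irs2 -0.13 to 0.024, Akt1 -0.045 to 0.014, Akt2 -0.10 to 0.016, Foxo1 -0.036 to 0.079 and Foxo3 -0.16 to 0.021. In AKO vs. WT rats they were Insr -0.29 to 0.0069, Pik3r1 -0.062 to 0.069, Foxo1 -0.17 to 0.17 and Gsk3b -0.32 to 0.021, and in HIP vs. AKO rats Insr -0.022 to 0.29, Akt2 -0.018 to 0.10 and Foxo1 -0.15 to 0.18. No paired analysis was possible because the replicate numbers only follow the order of the samples. Depth is an estimate, and it limits the precision of low genes such as Insrr.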
